A study of Mus musculus with 4 samples.

Results

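Steep timing transitions were the places where replication of the mouse ES cell genome changed from early to late within 1 or 2 bins of 50 kb. On chromosomes 1 to 19, 194 of 1087 transitions between the early and the late state met this rule (17.8%, exact 95% interval 15.6 to 20.3%, which covers counting only). A bin was early at RT of 1 or more and late at RT of -1 or less, where RT is the log2 ratio of early over late S-phase reads. Each transition was described by its run, the 1 or 2 intermediate bins strictly between these limits, and by 1 bin on either side, called the early side and the late side. The members were thus chosen by RT alone. In all, 765 of 47928 autosomal bins took part (1.60%), and no pair of transitions shared a side bin.

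RT was measured by population Repli-seq in F121-9, a diploid, hybrid cas/129 mouse ES cell line grown in N2B27 medium with 2i and LIF. Cells were pulse labelled with BrdU, sorted into an early and a late S-phase fraction, and the labelled DNA was sequenced. Each fraction had 2 replicate libraries, which makes 4 in all. The profile held 1 value per bin that joined both fractions, so RT had no replicate error, the depth behind it was unknown, and the 2 parental genomes were not told apart.

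In mammalian cells, neighbouring origins fire at similar times and form large domains of similar timing. Between an early and a late domain lies a timing transition region, which forks from the early domain are generally thought to cross on their way into late DNA. Early domains are typically rich in genes and in G and C, and late domains are typically poor in both.

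**Figure D1:**
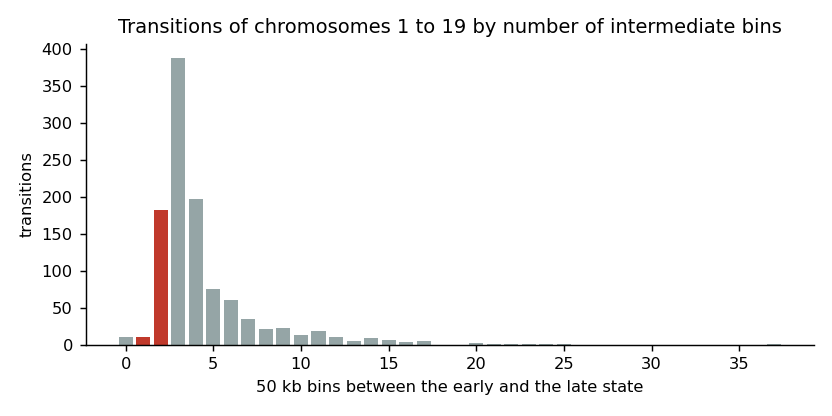
Number of transitions (y axis) by the number of 50 kb bins between the early and the late state (x axis). Steep transitions, in red, were 11 with 1 bin and 183 with 2 bins, and the most frequent length was 3 bins, with 388 transitions.

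Promoters on the early side of steep transitions held more CG dinucleotides than those in the run or on the late side. Promoter sequences are given for 6 genes as examples of promoters with many and with few CG, from 250 bases before to 50 bases after the start, 5′ to 3′ on the gene's own strand (RefSeq, GRCm38.p6, the build called mm10). The start is that of RefSeq, which for Vmn1r9 lies downstream of the 5′ end of the GENCODE gene record, in the same late side bin. Every CG is in capitals. Slc16a14, Ppt1 and Hand2 started on the early side, Bmp5 in a run, and 9530002B09Rik and Vmn1r9 on the late side.
Slc16a14, chr1:84935034-84935333, minus strand: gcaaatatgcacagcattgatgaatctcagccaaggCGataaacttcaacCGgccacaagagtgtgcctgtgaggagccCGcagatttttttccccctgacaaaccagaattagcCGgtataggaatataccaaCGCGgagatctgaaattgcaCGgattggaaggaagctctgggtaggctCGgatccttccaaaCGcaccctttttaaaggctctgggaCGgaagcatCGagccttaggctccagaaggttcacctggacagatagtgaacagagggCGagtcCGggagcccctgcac
Ppt1, chr4:122835977-122836276, plus strand: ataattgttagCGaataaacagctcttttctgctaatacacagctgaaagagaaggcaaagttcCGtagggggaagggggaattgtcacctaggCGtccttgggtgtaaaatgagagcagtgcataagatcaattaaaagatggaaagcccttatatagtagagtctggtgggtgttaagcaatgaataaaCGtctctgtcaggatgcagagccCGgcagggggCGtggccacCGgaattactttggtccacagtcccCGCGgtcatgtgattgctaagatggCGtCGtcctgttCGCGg
Hand2, chr8:57320733-57321032, plus strand: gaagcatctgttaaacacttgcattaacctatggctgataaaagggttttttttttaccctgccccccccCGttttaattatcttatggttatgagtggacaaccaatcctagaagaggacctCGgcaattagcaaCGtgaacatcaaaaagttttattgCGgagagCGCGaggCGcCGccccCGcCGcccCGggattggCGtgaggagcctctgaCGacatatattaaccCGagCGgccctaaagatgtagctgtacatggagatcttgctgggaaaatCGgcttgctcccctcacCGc
Bmp5, chr9:75775115-75775414, plus strand: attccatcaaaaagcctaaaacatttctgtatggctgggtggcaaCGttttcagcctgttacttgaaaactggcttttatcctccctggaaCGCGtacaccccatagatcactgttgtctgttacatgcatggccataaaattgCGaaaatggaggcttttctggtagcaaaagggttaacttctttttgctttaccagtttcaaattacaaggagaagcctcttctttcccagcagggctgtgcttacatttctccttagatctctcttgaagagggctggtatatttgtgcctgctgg
9530002B09Rik, chr4:122689009-122689308, plus strand: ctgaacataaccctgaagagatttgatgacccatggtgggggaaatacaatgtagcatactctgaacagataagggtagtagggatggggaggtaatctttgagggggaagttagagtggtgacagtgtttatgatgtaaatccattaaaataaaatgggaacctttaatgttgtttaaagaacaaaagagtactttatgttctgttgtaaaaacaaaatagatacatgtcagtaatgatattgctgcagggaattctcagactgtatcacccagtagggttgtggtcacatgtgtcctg
Vmn1r9, chr6:57070645-57070944, plus strand: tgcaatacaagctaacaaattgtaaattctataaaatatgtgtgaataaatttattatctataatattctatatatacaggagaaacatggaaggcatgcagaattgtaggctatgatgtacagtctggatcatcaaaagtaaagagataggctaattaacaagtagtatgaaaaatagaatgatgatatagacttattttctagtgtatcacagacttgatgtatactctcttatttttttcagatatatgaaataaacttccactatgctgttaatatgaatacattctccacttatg

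The Slc16a14 and Ppt1 promoters held 13 CG each and the Hand2 promoter 17. The Bmp5 promoter held 4, and the 9530002B09Rik and Vmn1r9 promoters held 0. The 3 early side examples were CG-rich and do not stand for the range of the early side, where 7.69% of promoters held no CG. Ppt1, a lysosomal thioesterase, and 9530002B09Rik started on opposite sides of a single transition on chromosome 4. Over all genes with a promoter sequence, the median number of CG was 6 on the early side (91 of 122 genes matched), 2 in the runs (106 of 173) and 2 on the late side (49 of 64). The Hist1 genes had no promoter sequence, and other genes of a cluster were counted separately. These medians therefore describe the matched genes only. The median was 14 over 19174 protein-coding promoters of the autosomes, 18 in early bins and 3 in late bins. Promoters with 10 or more CG made up 45.1% on the early side, 18.9% in the runs and 14.3% on the late side, against 59.3% of all promoters. Among matched genes, the early side thus held a smaller share of CG-rich promoters than early bins as a whole, where it was 71.7%.

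RT chose the transitions, so its values are a description. Between the side bins RT changed by a median of 2.44 (quartiles 2.31 and 2.64, range 2.05 to 4.78, n = 194). The side bins lay close to the limits of the rule, with medians of 1.20 on the early side and -1.20 on the late side. In runs of 2 bins, the median RT was 0.39 in the bin next to the early side and -0.42 in the bin next to the late side. The median slope was 16.3 log2 units per Mb, against 12.5 for transitions with 3 or 4 intermediate bins and 6.38 for those with 5 or more. The early side was on the left in 98 transitions and on the right in 96.

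The change of RT continued beyond the side bins. On the early side the median RT was 1.90 at 1 bin outward, 2.45 at 2 bins, 2.92 at 5 bins and 0.67 at 20 bins. On the late side it was -1.81, -2.30, -3.04 and -2.20 at the same distances. At 5 bins outward, transitions with 3 or 4 intermediate bins had medians of 2.37 and -2.55, and those with 5 or more had 2.16 and -2.43. The rule, which selects on how fast RT changes, partly fixes the values of the bins that follow, so nothing is read from this difference. The most extreme RT within 20 bins had medians of 3.23 and -3.58 for steep transitions, 2.96 and -3.28 for 3 or 4 bins, and 3.07 and -3.13 for 5 or more. The stretch of early bins next to a steep transition had a median length of 700 kb and the stretch of late bins 825 kb, against 500 and 700 kb at the other transitions.

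**Figure D2:**
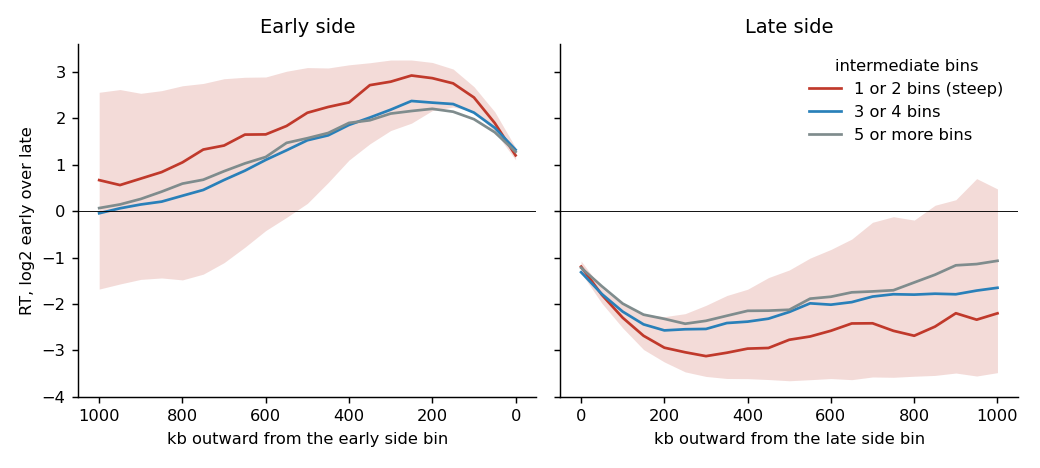
Median RT (log2 early over late, y axis) against the distance in kb outward from the early side bin (left panel) and from the late side bin (right panel), for transitions with 1 or 2 (red), 3 or 4 (blue) and 5 or more (grey) intermediate bins. Shading gives the quartiles of the steep transitions, whose median was the most extreme at 5 bins outward on both sides, 2.92 and -3.04.

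The limits cut through a continuous range of values. The early side bin closest to its limit had RT 1.00114, and the late side bin closest to its limit had RT -1.00001. The run bin closest to a limit had RT 0.99. The noise of 1 bin, taken from its difference to both neighbours in flat stretches (23574 bins), had a robust SD of 0.150, and 131 of the 194 transitions had a side bin within 0.150 of its limit. Just outside the rule, 110 of 388 transitions with 3 intermediate bins had a run bin within 0.1 of a limit. The next bin outward was also past its limit on both sides in 181 of 194 (93.3%, exact 95% interval 88.8 to 96.4%). This held for 175 of 183 runs of 2 bins and for 6 of 11 runs of 1 bin. For comparison it held for 552 of 585 transitions with 3 or 4 intermediate bins (94.4%) and 258 of 297 with 5 or more (86.9%). It held for 2 of the 11 places where the state changed with no intermediate bin, which were not counted as steep. Steep transitions were thus much like those with 3 or 4 bins in this respect.

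The largest change was on chromosome 1 (chr1:84950001-85050000), where RT was 3.05 on the early side, 0.27 and 0.47 in the run and -1.73 on the late side, a change of 4.78. RT reached 0 in an intron of C130026I21Rik. The closest start toward the early side was that of Slc16a14, a member of the monocarboxylate transporter family, in the early side bin. Toward the late side it was Gm10553, in a bin at -1.67.

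Among transitions whose next 2 bins outward were past their limit on each side, the next changes were 3.53 on chromosome 13 (chr13:67950001-68000000, closest starts BC048507 and Mtrr), 3.53 on chromosome 14 (chr14:19550001-19600000, Gm5458 and Gm2237) and 3.38 in a histone cluster on chromosome 13 (chr13:23550001-23650000). Mtrr, which encodes methionine synthase reductase, started 609 kb from the place where RT reached 0, and BC048507 started 110 kb from it. Smaller changes were 3.30 on chromosome 5 (chr5:25900001-25950000, Actr3b and Gm21663), 3.23 on chromosome 4 (chr4:122700001-122800000, Ppt1 and 9530002B09Rik), 3.18 on chromosome 18 (chr18:60350001-60450000, Smim3 and Iigp1) and 2.96 on chromosome 2 (chr2:83900001-84000000, Zswim2 and Gm13698). Actr3b is a relative of the actin-nucleating Arp3 protein and Iigp1 an interferon-induced GTPase. Without the condition on the next bins, a change of 3.17 on chromosome 12 (chr12:3150001-3200000) also ranked among the first 8, and its next late bin had RT 0.18. Of the 8 transitions chosen with that condition, 3 had a run of 1 bin. The run on chromosome 2 held a row of genes of equal length (2.493 kb each), such as Gm13698 and Gm13691. How well reads map in such bins was not examined.

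GC content was not used by the rule, and it was higher on the early side. It averaged 43.1% ± 2.91 on the early side and 41.3% ± 2.22 on the late side (SD over 194 transitions). Early bins averaged 45.4% and late bins 39.3%, so both side bins lay between these levels. The difference averaged 1.86 percentage points ± 2.40 (SD), with a range of -3.65 to 10.2. It was above 0 in 159 of 194 transitions (82.0%, exact 95% interval 75.8 to 87.1%). Among all pairs of bins 150 kb apart, the earlier bin had the higher GC content in 60.1%, and among transitions with 3 or more intermediate bins the early side had it in 73.7%. The mean difference was above 0 on 19 of 19 chromosomes. The number of CG dinucleotides averaged 468 per bin on the early side and 356 on the late side. Under limits of 1.5 and -1.5, 9 transitions were steep and the GC difference averaged 0.64 points, with a 95% interval from the SE of -0.96 to 2.24.

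GC content changed most next to the run. It averaged 44.3% at 5 bins outward on the early side, 42.0% and 41.7% in the bins of the run, and 40.5% at 5 bins outward on the late side. The largest difference, 10.2 points, was at the vomeronasal receptor genes Vmn1r53 and Vmn1r54 on chromosome 6 (chr6:90200001-90300000).

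Gene starts also fell along the transition. The early side held 0.629 protein-coding starts per bin, the run 0.456 and the late side 0.330. The mean was 0.859 in all early bins, 0.170 in all late bins and 0.433 in all bins. The early side was therefore poorer in starts than early bins in general, and the late side richer than late bins. The same held at transitions with 3 or 4 intermediate bins (0.523 on the early and 0.250 on the late side) and with 5 or more (0.461 and 0.189). At least 1 start lay on the early side of 74 transitions (38.1%), in the run of 66 (34.0%) and on the late side of 45 (23.2%). A start was present in 28.3% of all bins, 52.3% of early bins, 12.6% of late bins and 26.8% of bins between the limits, and most runs spanned 2 bins. The early side held more starts than the late side in 61 transitions, fewer in 19 and the same number in 114. On 15 of 19 chromosomes the early sides held more starts in all. The difference, early minus late, averaged 0.299 starts per bin over all 194, but -0.55 in the 11 runs of 1 bin and -0.89 in the 9 transitions that were steep under limits of 1.5 and -1.5.

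Annotated genes of any kind covered fewest bases inside the run, among the bins up to 20 outward. They covered 67.1% ± 2.35 of the bin at 5 bins outward on the early side, 44.1% ± 2.77 of the early side bin, 33.0% ± 2.75 and 29.9% ± 2.66 of the run bins, and 34.7% ± 2.97 of the late side bin (SE over transitions). The coverage of the run was below the mean of all late bins, 35.8%. At transitions with 3 or 4 intermediate bins, genes covered 53.3% of the early side bin and 46.0% of the late side bin. These differences between kinds of transition were not tested.

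**Figure D3:**
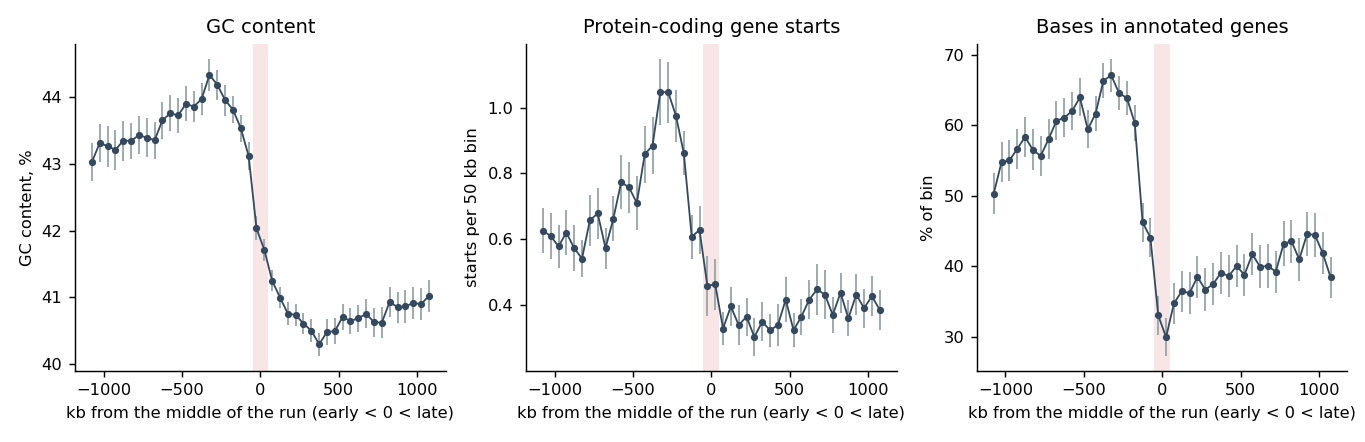
GC content (%), protein-coding gene starts per 50 kb bin and bases in annotated genes (% of bin) against the distance in kb from the middle of the run, with the early side at negative values. Points are means over up to 194 steep transitions (run bins, shaded, over the 183 runs of 2 bins) and bars are SE; GC content fell from 44.3% to 40.5% between 5 bins outward on the early and on the late side.

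RT reached 0 outside any annotated gene in 131 transitions (67.5%). It did so in an intron of a protein-coding gene in 35 and in an exon of one in 9, and in other genes in 19. For scale, annotated genes of any kind covered on average 48.4% of all bins and 35.8% of late bins. They covered 33.0% and 29.9% of the bins in runs of 2, so much of the run lay outside genes. No preference for places outside genes is read from the 67.5%. A protein-coding gene covered the run and reached into both side bins in 14 of 194 (7.22%, exact 95% interval 4.0 to 11.8%). Such a gene covered 15.2% of all windows of 2 bins, and 1321 of the 6960 windows of 2 bins between the limits. Genes crossed 70 of 585 transitions with 3 or 4 bins and 11 of 297 with 5 or more, whose longer runs only longer genes can cover.

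The crossing genes had a median length of 422 kb, and the definition itself requires a long gene. The longest was Galntl6 (1139 kb), a member of the GalNAc-transferase family, on chromosome 8 (chr8:57850001-57950000). RT was 1.00 on its early side, 0.0046 and -0.82 in the run and -1.63 on its late side. Erc2 (856 kb), a presynaptic active zone protein, crossed a transition on chromosome 14 (chr14:27800001-27900000) with RT 1.07, 0.33, -0.29 and -1.02. Gabrb1 (491 kb), a GABA-A receptor subunit, crossed one on chromosome 5 (chr5:71950001-72050000) with RT 1.11, 0.23, -0.45 and -1.28. Lrrc7 (479 kb), a postsynaptic density protein, and Caln1 (478 kb), a calcium-binding protein, crossed transitions on chromosomes 3 and 5. The rule fixes that RT differs by at least 2 log2 units between the side bins that a crossing gene reaches.

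Strand composition of the DNA followed the direction of the transition. Strand skew was taken as the sum of (G - C)/(G + C) and (T - A)/(T + A) in percent, on the strand read from the early to the late side, and the rule did not use it. In the runs it averaged 4.92% ± 4.86 (SD, n = 194), with a range of -10.4 to 19.3. It was above 0 in 168 of 194 runs (86.6%, exact 95% interval 81.0 to 91.1%). Over all windows of 2 bins, read from the earlier to the later neighbour, 62.0% were above 0 with a mean of 1.63% ± 5.23 (SD), and 83.6% of transitions with 3 or more intermediate bins were above 0. In transitions with 3 or 4 bins, the most similar kind, it was 510 of 585 (87.2%), as high as in the steep ones, and with 5 or more bins 227 of 297 (76.4%). G and T together made up 51.4% of the bases of the runs on that strand.

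The sign turned with the orientation. Where the early side was on the left, the skew read from early to late averaged 5.19% and was above 0 in 86 of 98, and where it was on the right it averaged 4.64% and was above 0 in 82 of 96. On the plus strand of the assembly the first group was therefore above 0 on average and the second below it. The part from T and A averaged 4.02% and the part from G and C 0.91%. The mean was above 0 on 19 of 19 chromosomes.

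The skew was also present outside genes. Over bases outside annotated genes it averaged 4.74% ± 5.48 (SD, n = 180 runs with at least 5000 such bases), with 151 of 180 above 0. In the 24 runs without any annotated gene base it averaged 4.37% ± 4.35, with 19 above 0. Read from early to late, the mean was -1.20% at 5 bins outward on the early side, 5.21% in the early side bin, 4.64% in the late side bin, 2.00% at 5 bins outward on the late side and 0.35% at 10 bins. The skew was therefore highest within about 1 bin of the transition. It averaged 4.42% in transitions with 3 or 4 bins and 2.61% in those with 5 or more. In the 9 transitions that were steep under limits of 1.5 and -1.5 it averaged 0.0014%.

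The highest skew, 19.3%, was in the run inside Fam19a4 on chromosome 6 (chr6:96900001-97000000), a gene for a secreted chemokine-like protein. The lowest, -10.4%, was at Cyp3a16, a cytochrome P450 gene, on chromosome 5 (chr5:145400001-145500000). These extremes were picked after their values were seen.

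**Figure D4:**
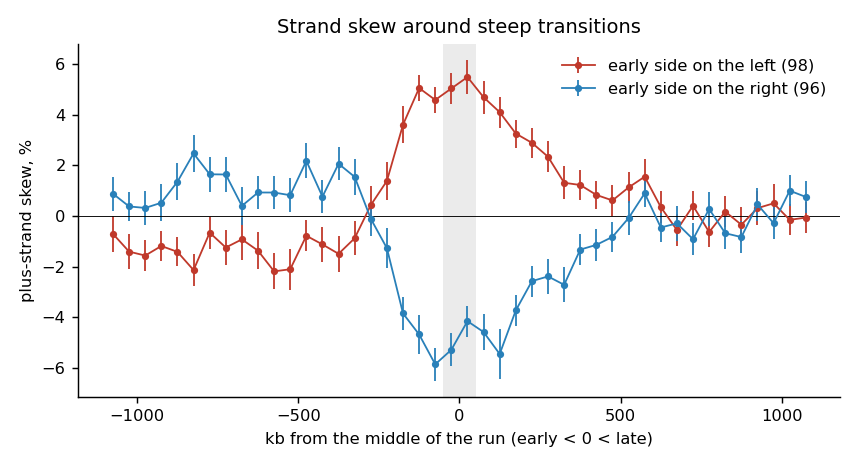
Mean strand skew on the plus strand (%, y axis) against the distance in kb from the middle of the run (x axis, early side at negative values), for the 98 steep transitions with the early side on the left of the assembly (red) and the 96 with it on the right (blue); bars are SE over transitions and the run is shaded. The curves are of opposite sign across the run, and read from early to late the runs averaged 5.19% and 4.64%.

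Matches to core letters of the CTCF motif (CCA, any 2 bases, AGG, any base, GGC) were counted on both strands. The early side held 0.531 matches per bin and the late side 0.335. At least 1 match was present in 38.7% of early side bins and 27.3% of late side bins, against 33.7% of all bins, 51.0% of early bins and 21.4% of late bins. Both sides thus lay between early and late bins, as for gene starts. In the 9 transitions steep under limits of 1.5 and -1.5 the difference, early minus late, was -0.22 matches per bin.

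In all, 359 of 20807 autosomal protein-coding genes started in a steep transition (1.73%). They were spread unevenly, since 81 transitions held no start and the 12 richest held 147 of the 359. The median length of these genes was 11.5 kb on the early side, 7.4 kb in the runs and 6.7 kb on the late side, against 17.6 kb for all genes. In early bins as a whole the median was 18.2 kb, and in late bins 10.6 kb. The means in the same order were 32.5, 55.0 and 74.3 kb, against 49.3 kb for all genes. The runs and late sides thus also held some very long genes. Genes of a cluster were counted separately. Of genes starting on the early side, 60 of 122 were transcribed toward the late side (49.2%), against 49.9% at transitions with 3 or more bins. Of genes starting on the late side, 36 of 64 were transcribed away from the early side (56.3%), against 43.6% at those transitions.

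The richest transitions cut gene clusters. The Hist1 genes encode replication-dependent histones, which are made in S phase, and 2 steep transitions lay in their cluster on chromosome 13. The first (chr13:21700001-21800000) held 21 starts, 6 on the early side, 12 in the run and 3 on the late side, and the late side starts were the olfactory receptor genes Olfr1359, Olfr1360 and Olfr1361. Its RT was 1.72, 0.40, -0.57 and -1.04 from early to late. The second (chr13:23550001-23650000) held 20 starts, all of them Hist1 genes, 5 on the early side, 11 in the run and 4 on the late side. Its RT was 2.18, 0.79, -0.23 and -1.21, so that histone genes of a single cluster lay in bins that differed by more than 3 log2 units.

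A transition on chromosome 11 (chr11:100000001-100100000) cut a cluster of keratin genes, which encode intermediate filament proteins of epithelia and hair. It held 13 starts, from Krt19, Krt15 and Krt13 at one end to the keratin-associated Krtap29-1 at the other, and all 13 genes were transcribed toward the late side. A second keratin cluster on chromosome 15 (chr15:101500001-101600000, Krt81 to Krt75, then Gm5414 and Gm5478) held 10 starts, of which 9 were transcribed toward the early side. On chromosome 7 (chr7:102600001-102700000), 11 olfactory receptor genes from Olfr550 to Olfr559 and the ubiquitin ligase genes Trim21 and Trim68 made up 13 starts. A transition on chromosome 3 (chr3:90700001-90800000), 1 of 8 with 3 starts on the early side and the one of these with the largest RT change, held 2 more in its run, and its genes included the peptidoglycan recognition gene Pglyrp4. No transition had 5 or more starts more on the late side than on the early side.

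**Figure D5:**
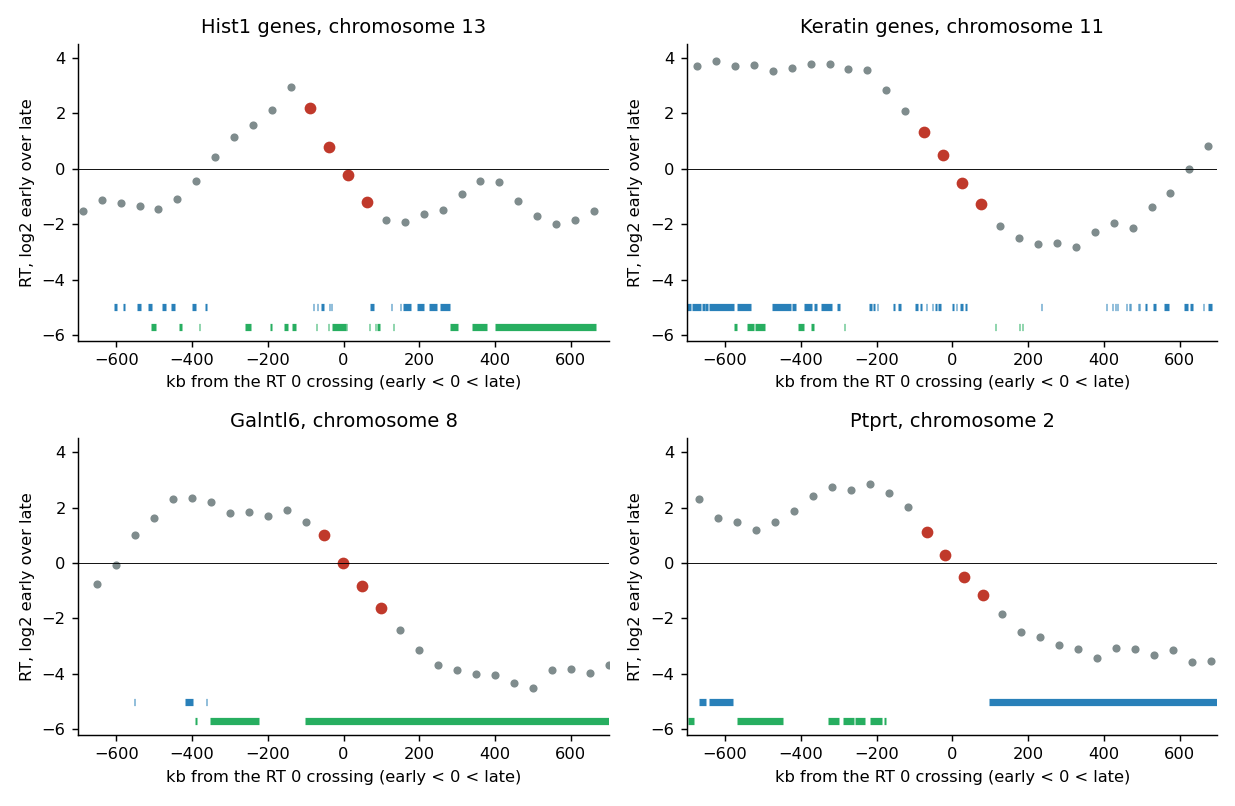
RT (log2 early over late, y axis) against the distance in kb from the point where RT reached 0 (x axis, early side at negative values) at 4 steep transitions, with the side and run bins in red. Bars at the bottom are protein-coding genes transcribed toward the late side (blue, upper row) or toward the early side (green, lower row); the 13 keratin starts all fell in the upper row, and Galntl6 and Ptprt reached far into the late domain.

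Receptor gene families were among the lists with the highest shares. Of 1128 olfactory receptor genes, 60 started in a steep transition (5.32%), 12 on the early side, 33 in the run and 15 on the late side, in 10 transitions. Of 329 vomeronasal receptor genes, which encode pheromone receptors, 26 did (7.90%), 6 on the early side, 16 in the run and 4 on the late side, in 9 transitions. Both shares were above the 1.73% of all genes, but the genes of a cluster share their bins and the share was not tested. At the Vmn1r4 to Vmn1r9 cluster on chromosome 6 (chr6:56950001-57050000), RT was 1.13, 0.11, -0.80 and -1.57, so that Vmn1r4 started in an early bin and Vmn1r9 in a late bin. Olfr98 to Olfr108 on chromosome 17 (chr17:37300001-37400000) likewise ran from RT 1.52 to -1.13.

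Of 95 cadherins and protocadherins, 13 started in a steep transition (13.7%), all in the Pcdha cluster on chromosome 18, which encodes neuronal surface proteins from a row of alternative first exons. RT was 1.12 at Pcdha1 to Pcdha3, 0.46 at Pcdha4 to Pcdha9, -0.21 at Pcdha12 and -1.10 at Pcdhac1. All 16 protein-coding starts there were transcribed toward the late side. Most of these gene models share their last exons, so they are not separate genes in the usual sense.

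Among regulators, 2 of 26 mesoderm and endoderm genes started in a steep transition. Hand2, a heart and limb transcription factor, started on the early side of a transition on chromosome 8 at RT 1.00. Sox17, an endoderm transcription factor, started in a run on chromosome 1 at RT -0.36. Bmp5, a bone morphogenetic protein, started in a run on chromosome 9 at RT -0.35. It was the only 1 to do so on a list of 36 ligands of the TGF-beta, Wnt, FGF and Notch families. That list was not complete, since Gdf2 and Gdf10 started on a late side (RT -1.14) and Fgf14 in a run (RT -0.37). Of 26 GABA and glutamate receptor subunits, Grin2b, an NMDA receptor subunit, started on a late side on chromosome 6 at RT -1.41. None of 24 pluripotency factors, 26 neural regulators, 30 replication and timing control genes, 92 potassium channel subunits or 35 listed giant genes started in a steep transition. The list of giant genes did not hold every very long gene, since Ptprt (1139 kb) and Zfhx3 (1019 kb) started on late sides. Over all genes the share was 1.73%, beside which lists of 24 to 92 genes are short.

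Of 388 Zfp genes for zinc finger proteins, 4 started in a steep transition (1.03%). Zfp507 (RT 1.01), Zfp560 (1.26) and Zfp503 (1.43) did so on the early side, and Zfp488 (-0.35) in a run. Of 372 solute carriers, 8 did (2.15%). Slc16a14 (3.05) and the urea transporter Slc14a1 (1.02) started on the early side, and Slc39a8 (0.45), Slc7a14 (-0.60), Slc25a54 (-0.64) and Slc22a30 (-0.27) in runs. The mitochondrial carrier Slc25a24 (-1.32) and the zinc transporter Slc30a8 (-1.40) started on the late side. The share of all genes, 1.73%, lay between these values.

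Steep transitions were found on 19 of 19 chromosomes, at 8.10 per 100 Mb of bins with a value. Chromosome 13 had the most, 19 transitions or 16.2 per 100 Mb, and chromosome 1 the fewest for its length, 8 transitions or 4.16 per 100 Mb.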

How the data were processed

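The authors deposited 1 replication timing profile of log2 values, the ratio of early to late S-phase reads per 50 kb bin of mm10 after RPM conversion. The submitters' processing notes name Bowtie2, SAMtools and bedtools. How the 2 replicates were combined and whether the profile was smoothed is not given in the sources used here, and the depth is unknown. Transitions were called on chromosomes 1 to 19 from the deposited log2 values as stated in the report, and 3 state changes that held a missing bin were left out. Base content, GENCODE gene starts and motif matches per bin were computed from GRCm38.p6 with Python 3.11.15, numpy 2.4.6, pandas 2.3.3 and scipy 1.17.1, and figures were drawn with matplotlib 3.10.9. A gene start was the 5′ end of the gene record. The point of RT 0 was interpolated between bin centres. A skew needed at least 5000 bases. Calling was tested on simulated data, where 813 of 813 planted steep transitions were recovered. The simulated states lay far from the limits and their noise was smaller than that of the profile, so this checks the code only. It does not show how calls with bins near a limit behave.

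The members and gene lists were chosen with earlier results of these data known. Since RT chose the members, no test was run; shares carry exact (Clopper-Pearson) 95% intervals, which cover counting only, and SD and SE describe the spread over transitions, which are not replicates. Named were the 8 transitions with the largest RT change whose next 2 bins outward were past their limit, the first 8 without that condition, the 5 crossed by the longest genes, the 5 with the most starts on the early side (ties ranked by RT change), every gene of the lists, the chromosomes with the most and fewest, and the values nearest the limits. Alternatives were other RT limits, other run lengths, a running median, a next-bin condition, wider sides, all annotated genes, bases outside genes and chromosome X.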

Additional observations from a re-analysis of the deposited data

How the results depend on the processing

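Of 65 alternative values, 43 stayed close to the value reported. Under RT limits of 0.5 and -0.5, 1064 transitions were steep, 78.5% of all, the GC difference was 0.99 points with 70.5% of transitions above 0, and genes crossed 19.9%. Under limits of 1.5 and -1.5 only 9 were steep, 0.974% of all, the GC difference was 0.64 points with 55.6% above 0, genes crossed 0%, 0% of early side genes (of 1) pointed to the late side and the skew averaged 0.0014%. In those 9 the late side held more, by -0.89 gene starts and -0.22 motif matches per bin (early minus late). With runs of 1 bin only, 11 were steep, 1.01% of all, the skew averaged 3.77% and the difference in starts was -0.55 per bin, so the excess of starts on the early side rested on runs of 2 bins. With runs of 1 to 3 bins, 582 were steep, 53.5% of all. With 3 bins on each side the GC difference was 2.47 points, above 0 in 90.7%. A running median left 184 transitions, the next-bin condition 181 and chromosome X made 201, with the measures run under each close to those reported. No paired analysis was possible because each bin carries a single RT value that joins both replicates and fractions, and for the same reason leaving out each replicate was not run. In 2 transitions a bin had under 50000 assembled bases.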

Other observations

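Genes longer than 100 kb that started in a run or on the late side mostly pointed away from the early domain. Of 31 such starts, 27 were transcribed toward the late side (87.1%, exact 95% interval 70.2 to 96.4%, which covers counting only), but 12 of these lay in the Pcdha cluster. Without that cluster it was 15 of 19 (78.9%, 54.4 to 93.9%), and at transitions with 3 or more intermediate bins 171 of 307 (55.7%, 49.9 to 61.3%). Among the 15 were Ptprt (1139 kb), a receptor tyrosine phosphatase, Zfhx3 (1019 kb), a transcription factor, Fgf14 (699 kb), Grin2b (460 kb) and Ephb1 (433 kb), a receptor tyrosine kinase. The 4 transcribed toward the early side were Htr1f, Trpm8, Slc7a14 and Ttc17. Of genes over 100 kb that started on the early side, 5 of 10 pointed to the late side. Starts in the run and on the late side were pooled here, and the runs of the other transitions were longer. The length limit was chosen after values were seen and the difference was not tested.

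Chromosome X, left out above, had 7 steep transitions among 60. GC content was higher on the early side in 5 of 7, with a mean difference of 0.13 points ± 2.80 (SD). The skew read from early to late was above 0 in 6 of 7, with a mean of 5.43% ± 4.74. The early sides held 6 gene starts and the late sides 1.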
